A study of Mus musculus with 6 samples.

Results

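The genes described here encode the enzymes that cut and crosslink the extracellular matrix and the proteins that hold those enzymes in check. They were taken from RNA-seq of subcutaneous white adipose tissue (scWAT) as all genes whose symbols belong to the matrix metalloproteinases (*Mmp*), the tissue inhibitors of metalloproteinases (*Timp1* to *Timp4*), the ADAMTS proteases (*Adamts*), the ADAMTS-like proteins (*Adamtsl*) and the lysyl oxidases (*Lox* and *Loxl1* to *Loxl4*), without regard to their values. This gave 56 of the 55401 genes in the files. The families themselves were chosen with earlier results of these data known. The control group, YT-FF, was 3 male mice of 8 weeks whose *Yap* and *Taz* alleles were floxed in the study's methods, while the sample labels call them WT. The other group, YT-AKO, was 3 male mice of the same age with the genotype Yapfl/fl/Tazfl/fl;AdipoqCre. The *Adipoq* promoter restricts Cre to mature fat cells, so the other cells of the tissue keep both genes. All 6 mice were kept at room temperature on normal chow, and each library came from 1 mouse.

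In fat, adipocytes sit in a mesh of collagens, proteoglycans and microfibrils that is laid down mainly by fibroblasts and progenitor cells and is remodelled when the tissue grows or browns. MMPs and ADAMTS enzymes are zinc proteases, most of them secreted, that cleave collagens, gelatins and large proteoglycans. TIMPs bind the active site of these proteases, and each TIMP has its own preferences among them. Lysyl oxidases are copper enzymes that oxidise lysines of collagen and elastin so that the fibres become crosslinked.

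The libraries held 17740987 to 21838493 counted fragments. The matrix genes took 0.145% to 0.220% of them. Levels are given as CPM (counts scaled to library size with TMM factors) for comparisons between libraries, and as TPM (the share of transcripts, after division by exon length) for comparisons between genes. The 2 targeted genes were checked first. *Yap1* had a log2 fold change (labelled YT-AKO over YT-FF) of -0.98 and *Wwtr1*, the gene for TAZ, one of 0.89. The level of *Wwtr1* was thus higher in the libraries labelled YT-AKO. Counts per whole gene cannot tell whether its floxed part was lost, and cells other than fat cells keep both genes. The rise of *Wwtr1* therefore does not show whether the gene was deleted in fat cells. For protein, the paper reports by immunoblot that both YAP and TAZ were reduced in scWAT of YT-AKO mice. All directions below follow the labels. The library labelled YT-AKO 2 stood apart, with a TMM factor of 0.777 against 0.954 to 1.16 in the other 5. The tissue label was borne out by its adipocyte markers, which summed to 10101 to 15123 CPM in YT-FF and 17128 to 29302 CPM in the libraries labelled YT-AKO. In bulk tissue, fewer cells of a type and less RNA per cell cannot be told apart.

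Of the 56 genes, 43 passed the filter on low counts and entered edgeR's quasi-likelihood test, its p-values adjusted over all 16807 tested genes. Expression of 4 genes was higher and of 4 lower in the libraries labelled YT-AKO at an adjusted p under 0.05. The higher genes were *Timp1*, *Mmp3*, *Loxl1* and *Adamtsl5*, and the lower ones *Adamts5*, *Mmp25*, *Adamts20* and *Adamts6*. These 8 genes are 18.6% of the tested matrix genes, beside 21.6% of all tested genes called in either direction, 12.6% higher and 9.01% lower, so the share of changed matrix genes lay near the background. In 16 of the 43 genes the CPM values of the groups did not overlap, beside 51.5% of all tested genes. The median log2 fold change of the 43 genes was 0.17, and that of all tested genes was -0.02.

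The calls depended on single libraries. Without YT-AKO 2, 9 matrix genes were higher and 6 lower, among them all 8 of the genes above, beside 30.8% of all genes. Without YT-AKO 1 the test called 4 higher and 1 lower, beside 21% of all genes. Without YT-AKO 3 it called 2 and 2, beside 15.3%, and without YT-FF 3 it called 1 and 1, beside 7.06%. Without YT-FF 1 or YT-FF 2 it called 0, when 10 and 15 matrix genes still had an unadjusted p under 0.05 and 0 and 2 of all genes were called. When an adjusted p under 0.01 was asked for together with a log2 fold change beyond 1, edgeR called 0 matrix genes, beside 0.0892% of all genes higher and 0.0357% lower. DESeq2 called *Timp1* and *Mmp3* higher and *Adamts5*, *Adamts6*, *Adamts20* and *Mmp25* lower at that threshold, beside 7.58% and 3.79% of all genes, and limma-voom called 0.

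**Figure D1:**
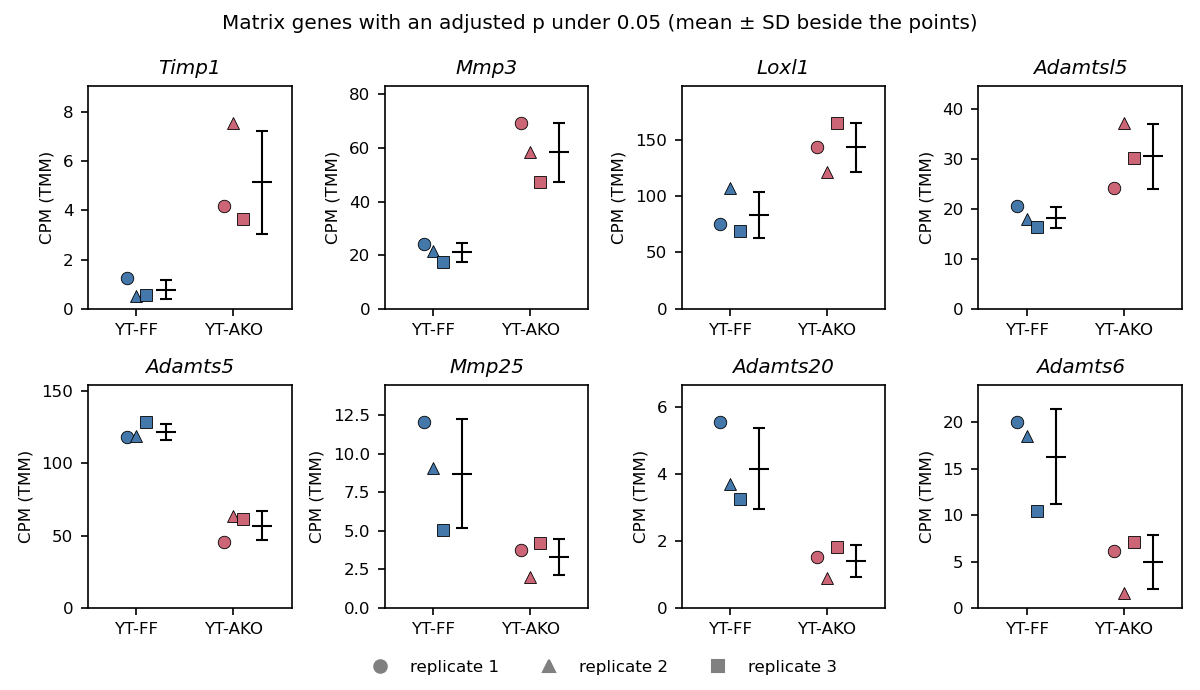
TMM-scaled CPM of the 8 matrix genes with an adjusted p under 0.05, by group, with 1 point per library (its shape gives the replicate) and the mean ± SD of the 3 libraries beside the points. In each panel the 3 libraries labelled YT-AKO lie on 1 side of the 3 YT-FF libraries, with *Timp1*, *Mmp3*, *Loxl1* and *Adamtsl5* above and the other 4 genes below.

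*Mmp3* was the MMP with the clearest rise. It encodes stromelysin-1, which cleaves proteoglycans, laminin and fibronectin and activates other pro-MMPs. The gene (ENSMUSG00000043613.8) lies on chromosome 9, 7445822 to 7455975 of mm10, on the plus strand. Its level was 24.2, 21.6 and 17.3 CPM in YT-FF (replicates 1, 2 and 3, as in all lists of values here) and 69.3, 58.7 and 47.2 CPM in YT-AKO. The lowest YT-AKO value thus lay well above the highest YT-FF value. The log2 fold change was 1.47 with a standard error (SE) of 0.206 (adjusted p = 0.0166), a 2.78-fold higher level. It stayed between 1.34 and 1.61 with each library left out, and was 1.13 (adjusted p = 0.0230) after a correction for gene length. In TPM, *Mmp3* took 10.8% ± 1.82 of the summed MMP transcripts in YT-FF and 18.2% ± 3.59 in YT-AKO (mean ± SD, n = 3).

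The most abundant MMP was *Mmp2*, gelatinase A, which degrades denatured collagen and type IV collagen and is made mostly by stromal cells. It reached 168 ± 40.0 TPM in YT-FF and 172 ± 69.3 TPM in YT-AKO, and made up 40.3% and 38.3% of the summed MMP transcripts. Its CPM values were 139, 181 and 125 in YT-FF and 244, 179 and 274 in YT-AKO, with YT-AKO 2 inside the YT-FF range. The log2 fold change was 0.65 (SE 0.224, adjusted p = 0.0690), and without YT-AKO 2 it was 0.81 (adjusted p = 0.0106). *Mmp9*, gelatinase B, did not pass either, with a log2 fold change of 0.61 (adjusted p = 0.110). Both gelatinases had an unadjusted p under 0.05, and DESeq2 called *Mmp2* at an adjusted p under 0.05.

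The collagenases were below the filter on low counts. *Mmp13* had 6 to 30 counts per library and *Mmp8* 0 to 14. Without the filter neither was called (*Mmp13* log2 fold change 1.59, adjusted p = 0.189, and *Mmp8* -0.56, adjusted p = 0.766), and *Mmp13* was not called in the 5 other alternatives that tested it. *Mmp1a* and *Mmp1b*, mouse orthologs of the human interstitial collagenase gene, had 0 counts in all 6 libraries. Fragments that map to more than 1 place were left out of the counts, so genes with close copies can lose counts. A count of 0 allows up to 0.128 to 0.177 CPM in these libraries, by counting error alone. Besides *Mmp1a* and *Mmp1b*, only *Mmp20*, the enamel protease, was at 0 throughout. The other genes below the filter were *Mmp7*, *Mmp10*, *Mmp16*, *Mmp21*, *Mmp24*, *Adamts3*, *Adamts18* and *Adamts19*, with at most 12 counts in any library.

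Among the membrane-type MMPs, *Mmp25* fell. It encodes a protease held at the cell surface by a lipid anchor and best known from neutrophils. The gene (ENSMUSG00000023903.8) spans 23628311 to 23645277 of chromosome 17. Its level was 12.0, 9.05 and 5.05 CPM in YT-FF and 3.78, 2.01 and 4.20 CPM in YT-AKO, so that only a narrow gap separated the groups. Its log2 fold change was -1.39 (SE 0.406, adjusted p = 0.0466). It was not called with limma-voom (adjusted p = 0.0548), after the length correction (adjusted p = 0.0609) or when any single library other than YT-AKO 2 was left out. Of the 7 neutrophil markers listed, 5 were tested and 0 were called by edgeR, and *Ly6g* and *Retnlg* were below the filter. They summed to 13.9 to 29.4 CPM in YT-FF and 16.3 to 36.0 CPM in YT-AKO. The 6 B cell markers summed to 963 to 1113 CPM in YT-FF and 570 to 926 CPM in YT-AKO, with 3 called lower and none at 0. The part of B cells in the lower *Mmp25* level was not tested.

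*Mmp14*, the membrane protease that activates pro-MMP2, did not pass the test. It had 63.6, 89.0 and 61.5 CPM in YT-FF and 97.7, 182 and 76.5 CPM in YT-AKO. The value of YT-AKO 2 set the log2 fold change, which was 0.73 (adjusted p = 0.133) with it and 0.28 without it. *Mmp19*, a basement membrane protease, showed the opposite case. It had 21.7, 25.9 and 32.7 CPM in YT-FF and 61.3, 16.0 and 55.1 CPM in YT-AKO, so YT-AKO 2 lay below all controls and the other pair well above them. Its log2 fold change was 0.72 (adjusted p = 0.255) and became 1.12 (adjusted p = 0.00374) without that library. Other genes overlap 28.3% of its exon bases, which lowers its counts. *Mmp12*, the macrophage elastase, ran from 2.27 to 9.89 CPM in YT-FF and from 3.95 to 26.1 CPM in YT-AKO (adjusted p = 0.227). The 7 macrophage markers summed to 484 to 558 CPM in YT-FF and 830 to 1138 CPM in YT-AKO, with 2 called higher (*C1qa* and *C1qb*, log2 fold change 1.73 and 1.38), 0 lower and none at 0. The other 5, among them *Itgam* and *Csf1r*, had log2 fold changes from -0.01 to 0.42. *Mmp14*, *Mmp19* and *Mmp12* were chosen for mention after their values were seen.

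**Figure D2:**
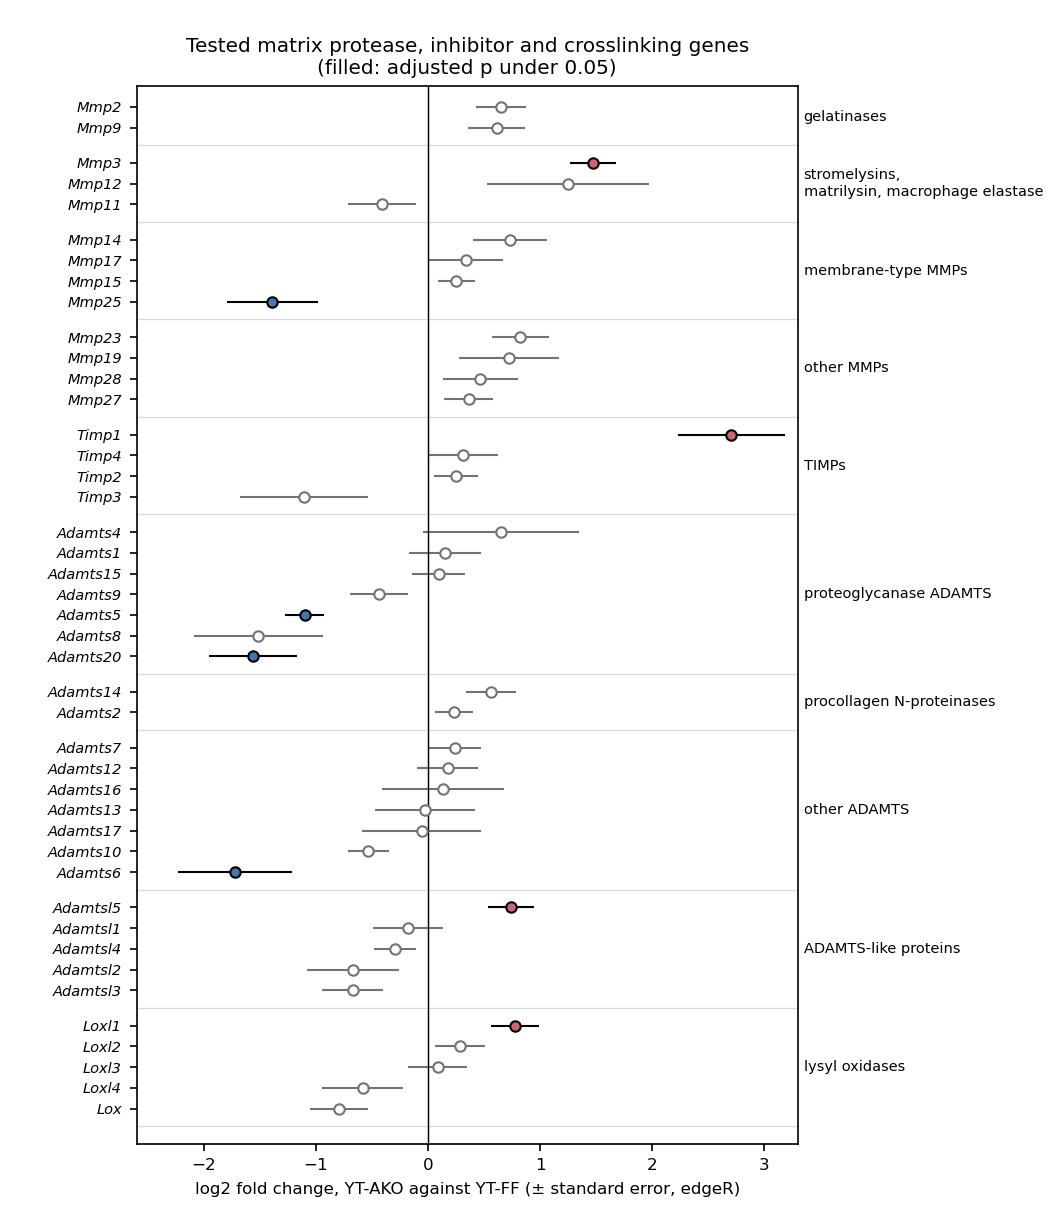
Log2 fold change (labelled YT-AKO over YT-FF) of the 43 tested matrix genes, grouped by function, with bars for the standard error of the edgeR fit (n = 3 per group). Filled points have an adjusted p under 0.05. They run from 2.71 for *Timp1* to -1.72 for *Adamts6*, and most points of the MMP groups lie to the right of 0.

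The TIMPs made up a pool in which *Timp2* dominated. In YT-FF, *Timp2* reached 356 ± 86.9 TPM, *Timp4* 75.2 ± 16.1, *Timp3* 67.3 ± 5.45 and *Timp1* 3.33 ± 1.75 (mean ± SD, n = 3). *Timp4* and *Timp3* differed by less than their spread. *Timp2*, *Mmp2* and *Loxl1*, followed by *Timp4* and *Timp3*, were the 5 matrix genes with the highest TPM in YT-FF.

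*Timp1*, the inducible inhibitor of most soluble MMPs, showed the largest rise of the 43 genes. Its gene (ENSMUSG00000001131.11) lies on chromosome X, 20870166 to 20874735, inside the span of *Syn1* on the other strand, with no shared exon bases. The YT-FF libraries held 29, 12 and 11 counts, and those labelled YT-AKO held 72, 128 and 62. In CPM these were 1.24, 0.527 and 0.566 against 4.19, 7.55 and 3.66, with no overlap. Its log2 fold change was 2.71 (SE 0.480, adjusted p = 0.0185). Left-out libraries moved it between 2.32 and 3.21, and the length correction gave 2.26 (adjusted p = 0.0242). In TPM it rose from 0.678% ± 0.377 of the TIMP pool to 3.85% ± 1.48, so it remained the smallest of the 4 in YT-AKO 1 and 3 but not in YT-AKO 2.

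*Timp3*, which binds to the matrix and also inhibits ADAMTS enzymes and the TNF-releasing protease ADAM17, had lower values in all libraries labelled YT-AKO but did not pass the test. It had 134, 152 and 147 CPM in YT-FF and 104, 14.9 and 82.4 CPM in YT-AKO. The log2 fold change was -1.11 (SE 0.573, adjusted p = 0.183). YT-AKO 2 held by far the lowest value and widened the spread, and without it the log2 fold change was -0.64 with an adjusted p of 0.0126. After the length correction the log2 fold change was -0.83 (adjusted p = 0.274). With that correction and without YT-AKO 2 it was -0.38 (adjusted p = 0.0797), so the call did not hold there. *Syn3* exons cover 21.3% of the exon bases of *Timp3*. As a share of the TIMP pool, *Timp3* was 13.1%, 12.5% and 14.9% in YT-FF and 8.82%, 1.19% and 6.73% in YT-AKO.

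*Timp2* and *Timp4* did not pass the test. *Timp2*, which both inhibits MMP2 and helps MMP14 to activate it, had 349, 443 and 298 CPM in YT-FF and 423, 417 and 455 CPM in YT-AKO (log2 fold change 0.25, SE 0.195, adjusted p = 0.365). *Timp4*, a TIMP expressed in adipose tissue and heart, had 108, 92.5 and 152 CPM in YT-FF and 108, 215 and 114 CPM in YT-AKO (log2 fold change 0.31, SE 0.313, adjusted p = 0.482). Only YT-AKO 2 exceeded the controls, and without it the log2 fold change of *Timp4* was -0.09. With library totals alone, under which the all-gene median was -0.34 in place of -0.02, *Timp2* was at -0.08 and *Timp4* at -0.05. In TPM both means were lower in YT-AKO, 269 ± 71.2 for *Timp2* and 55.8 ± 7.17 for *Timp4*.

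A ratio of sums within each library does not depend on the scaling between libraries, but the ratios here were not corrected for gene length. The summed TPM of the MMPs was 0.827, 0.837 and 0.794 times that of the TIMPs in YT-FF and 1.28, 1.08 and 1.24 times in YT-AKO. The ratio was 0.819 ± 0.0226 and 1.20 ± 0.104 (mean ± SD, n = 3), and it lay above all controls in every library labelled YT-AKO. In CPM the ratios were 0.610 ± 0.0378 and 0.937 ± 0.0425. The units differed in which sum moved. In TPM the MMPs summed to 413 ± 73.1 in YT-FF and 437 ± 126 in YT-AKO, and the TIMPs to 502 ± 76.6 and 360 ± 78.5. In CPM the MMPs summed to 383 ± 53.5 and 608 ± 26.4, and the TIMPs to 626 ± 53.3 and 649 ± 9.48. This is a description of transcript levels without a test, since 1 sum over a family carries no test here.

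**Figure D3:**
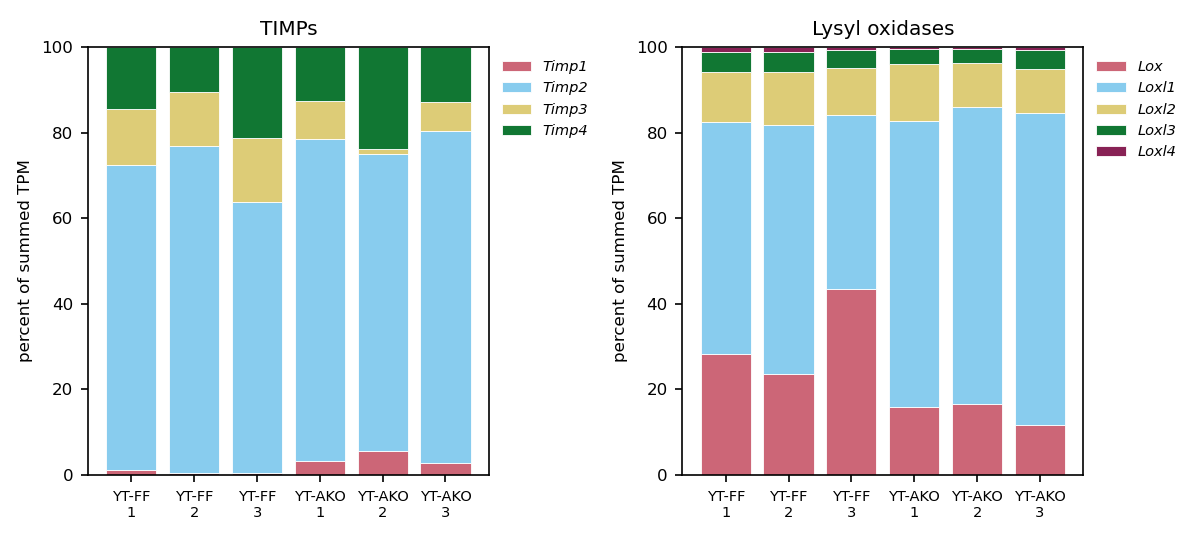
Share of each gene in the summed TPM of the 4 TIMPs (left) and of the 5 lysyl oxidases (right), in percent, with 1 bar per library. *Timp3* narrows from 13.5% to 5.58% on average, most in YT-AKO 2, and *Loxl1* widens from 51.0% to 69.6% while *Lox* narrows from 31.8% to 14.8%.

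The promoters of *Mmp3* and *Timp1* are shown because these genes rose most. Both are taken from RefSeq on GRCm38.p6, the build also called mm10, and run from 250 bases before the transcription start to 50 bases from it on. RefSeq promoters were found for 37 of the 56 genes, in 40 entries, among them 5 of the 8 changed genes. Capitals mark every match, on either strand, to GGAATG (the TEAD motif, which YAP and TAZ act through), TGANTCA (AP-1) or TTNNGCAA (C/EBP). The *Mmp3* promoter is chr9:7445572-7445871 and that of *Timp1* is chrX:20869916-20870215, both on the plus strand.
*Mmp3*: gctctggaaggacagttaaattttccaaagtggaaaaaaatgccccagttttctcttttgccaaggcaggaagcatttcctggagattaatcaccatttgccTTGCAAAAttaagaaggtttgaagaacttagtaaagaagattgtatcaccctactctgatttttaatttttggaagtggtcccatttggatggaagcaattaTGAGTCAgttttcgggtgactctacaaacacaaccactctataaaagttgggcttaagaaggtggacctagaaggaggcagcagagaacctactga
*Timp1*: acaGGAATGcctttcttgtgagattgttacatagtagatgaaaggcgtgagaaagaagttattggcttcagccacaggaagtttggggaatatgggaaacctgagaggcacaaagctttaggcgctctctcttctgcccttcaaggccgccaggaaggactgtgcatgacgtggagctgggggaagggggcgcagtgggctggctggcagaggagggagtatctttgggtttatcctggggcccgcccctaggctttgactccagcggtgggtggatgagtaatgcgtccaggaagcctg

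*Mmp3* held 1 AP-1 match, 46 bases before the start, and 1 C/EBP match, 148 bases before it. *Timp1* held 1 TEAD match, 247 bases before the start. The entries of *Adamtsl5*, *Adamts20* and *Mmp25* held none of these letters. Of all 32851 promoters of 300 bases, 14.7% held the TEAD letters, 7.81% the AP-1 letters and 10.8% the C/EBP letters, and among the 40 entries of matrix genes 2, 8 and 6 did. A match describes the sequence and is not evidence of a bound site.

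All 8 AP-1 matches fell in 1 cluster on chromosome 9, where 10 MMP genes lie side by side. All 6 C/EBP matches of the matrix genes fell in this cluster as well. AP-1 elements are a textbook feature of inducible MMP promoters. The AP-1 matches are printed with 15 bases on each side, in the direction of transcription. This sets *Mmp3*, which rose, beside the 7 other genes of the cluster that hold them. Capitals mark the AP-1 letters.
*Mmp13* (chr9:7272464-7272500, plus strand): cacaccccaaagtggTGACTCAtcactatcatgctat
*Mmp12* (chr9:7347315-7347351, plus strand): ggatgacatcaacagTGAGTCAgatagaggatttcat
*Mmp1b* (chr9:7388098-7388134, minus strand): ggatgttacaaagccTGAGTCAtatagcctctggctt
*Mmp3* (chr9:7445761-7445797, plus strand): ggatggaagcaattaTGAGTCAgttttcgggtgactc
*Mmp1a* (chr9:7464053-7464089, plus strand): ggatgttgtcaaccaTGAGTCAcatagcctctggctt
*Mmp10* (chr9:7502264-7502300, plus strand): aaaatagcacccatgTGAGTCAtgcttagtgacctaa
*Mmp20* (chr9:7628121-7628157, plus strand): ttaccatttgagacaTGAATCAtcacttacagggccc
*Mmp7* (chr9:7692012-7692048, plus strand): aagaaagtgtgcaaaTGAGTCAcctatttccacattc

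The same letters were thus present at genes with very different levels. *Mmp3* had 335 to 1192 counts per library, *Mmp12* 44 to 441, *Mmp13* 6 to 30, *Mmp7* at most 3 and *Mmp10* at most 2. *Mmp27* and *Mmp8*, the pair of the cluster without an AP-1 match, had 204 to 365 and 0 to 14 counts. Each held 1 C/EBP match, 57 and 19 bases before the start. *Mmp12* and *Mmp7* have 2 annotated starts each, and only 1 of the 2 holds the AP-1 match.

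This MMP cluster lies beside one of the targeted genes. *Yap1* (7931999 to 8004596 of chromosome 9, minus strand) has its nearer end 659 kb from the start of *Mmp13*, the farthest gene of the cluster, and 232 kb from the end of *Mmp7*, the nearest. *Mmp3* ends 476 kb from it. Of the 10 MMP genes, 3 were tested, and of these *Mmp3* was called higher, while *Mmp12* and *Mmp27* were not called (log2 fold change 1.25 and 0.36). Between the cluster and *Yap1*, *Birc3*, *Tmem123* and Gm10709 were lower (log2 fold change -0.82, -0.77 and -2.80, adjusted p = 0.0407, 0.0409 and 0.0186) and *Birc2* was not called (-0.13). The position was looked at after the rise of *Mmp3* was seen, and its part in the result was not tested.

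**Figure D4:**
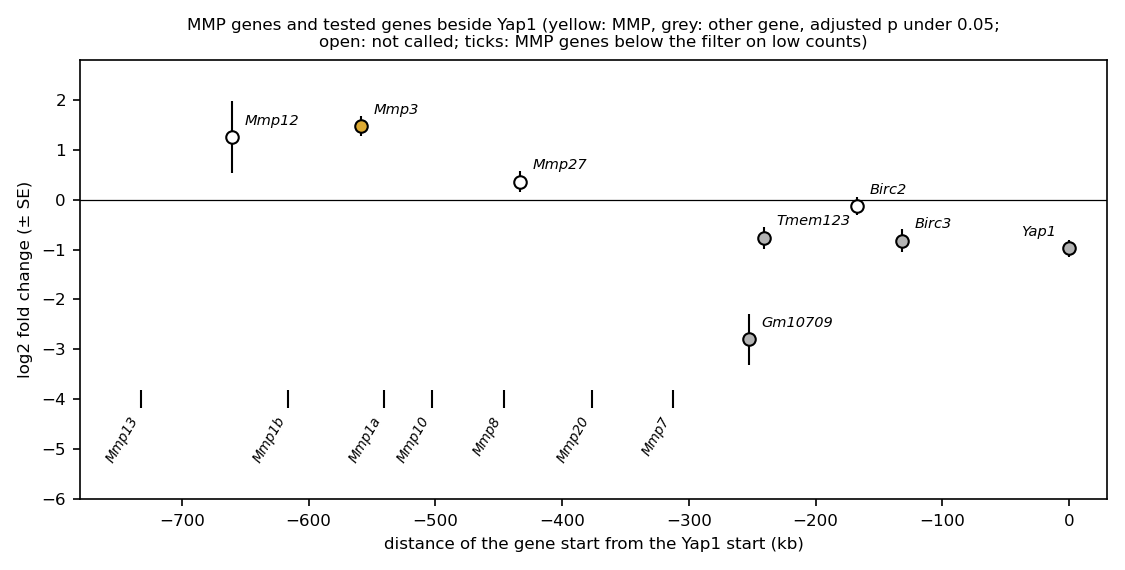
Log2 fold change (± standard error, edgeR, n = 3 per group) of the MMP genes of the chromosome 9 cluster and of the other tested genes up to *Yap1*, against the distance in kb of each gene's start from the start of *Yap1*. Ticks mark the 7 MMP genes that were not tested. *Mmp3* is the only called gene of the cluster, at 1.47, and *Yap1* lies at -0.98.

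The ADAMTS proteases that passed the test all fell. *Adamts5*, an aggrecanase that cleaves versican and aggrecan, had the most even values of the 8 changed genes in the controls. The gene (ENSMUSG00000022894.6) spans 85856173 to 85901828 of chromosome 16. Its level was 118, 119 and 128 CPM in YT-FF and 45.3, 63.3 and 61.7 CPM in YT-AKO, so every library labelled YT-AKO lay far below all controls. The log2 fold change was -1.10 (SE 0.175, adjusted p = 0.0177) and ran from -1.19 to -0.95 with each library left out. After correction for gene length it was -0.61 (adjusted p = 0.0955). Its exons sum to 10.8 kb, and its TPM went from 42.8 ± 0.710 to 12.5 ± 2.73.

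*Adamts20*, a versican-cleaving protease known from pigment cell migration in development, was low throughout. Its counts were 130, 84 and 63 in YT-FF and 26, 15 and 31 in YT-AKO, or 5.54, 3.69 and 3.24 against 1.51, 0.885 and 1.83 CPM. The log2 fold change was -1.56 (SE 0.392, adjusted p = 0.0327). *Adamts6*, a protease that acts on microfibril proteins, had 19.99, 18.5 and 10.4 CPM in YT-FF and 6.10, 1.65 and 7.09 CPM in YT-AKO. Its log2 fold change was -1.72 (SE 0.506, adjusted p = 0.0474). YT-AKO 2 was the lowest library for both genes, and without it both were still called, with log2 fold changes of -1.32 and -1.31. Neither was called after the length correction (-1.19 and -1.43, adjusted p = 0.0587 and 0.0652).

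Of the other ADAMTS genes, 13 were tested and none was called. The 7 proteoglycanase genes, which include the called *Adamts5* and *Adamts20*, ran from -1.56 (*Adamts20*) to 0.65 in log2 fold change. The procollagen N-proteinases *Adamts2* and *Adamts14*, which trim fibrillar procollagens so that fibres can form, were at 0.23 and 0.56 (adjusted p = 0.336 and 0.0975), and neither DESeq2 nor limma-voom called them. *Adamts10*, a microfibril-associated member with 51.1 ± 11.2 TPM in YT-FF, was at -0.53 (adjusted p = 0.0711), with no overlap between the groups. In total the ADAMTS genes summed to 481 ± 10.2 CPM in YT-FF and 391 ± 29.3 CPM in YT-AKO (mean ± SD, n = 3). In TPM, which carries no TMM scaling, the sums were 203 ± 9.21 in YT-FF and 109 ± 33.0 in YT-AKO. Neither sum was corrected for the slope with gene length described below.

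*Adamtsl5*, which encodes a protein without protease activity that binds microfibrils, rose modestly. The gene (ENSMUSG00000043822.18) lies on chromosome 10, 80339110 to 80348412. It had 20.5, 17.9 and 16.3 CPM in YT-FF and 24.2, 37.2 and 30.1 CPM in YT-AKO, with a log2 fold change of 0.74 (SE 0.203, adjusted p = 0.0400). It was still called after the length correction (0.87, adjusted p = 0.0428) and not with library totals alone (0.39, adjusted p = 0.163). Its TPM was the same within the spread, 14.7 ± 2.11 in YT-FF and 15.1 ± 1.91 in YT-AKO. The other 4 ADAMTS-like genes had log2 fold changes from -0.67 to -0.18 and were not called.

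Of the 5 lysyl oxidases 1 passed the test. *Loxl1*, which is needed for elastic fibre assembly, had the highest mean TPM of the 5 in YT-FF and rose. The gene (ENSMUSG00000032334.10) spans 58287738 to 58313186 of chromosome 9. Its level was 75.2, 107 and 68.6 CPM in YT-FF and 144, 121 and 165 CPM in YT-AKO, with a log2 fold change of 0.78 (SE 0.216, adjusted p = 0.0411). Its adjusted p was 0.0565 after the length correction and 0.0504 with upper-quartile factors. With library totals alone the log2 fold change was 0.46 (adjusted p = 0.217). In TPM the groups overlapped, with 96.9 ± 27.6 in YT-FF and 107 ± 37.8 in YT-AKO.

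*Lox*, the founding crosslinking enzyme of collagen and elastin, did not pass the test but was lower in all 3 libraries labelled YT-AKO. It had 56.9, 62.8 and 107 CPM in YT-FF and 49.9, 42.1 and 38.6 CPM in YT-AKO (log2 fold change -0.79, SE 0.258, adjusted p = 0.0612). DESeq2 called it (-0.80, adjusted p = 0.0261). Without YT-FF 3, its highest library, the log2 fold change was -0.45. The ratio of *Loxl1* to *Lox* in TPM is free of the scaling between libraries but was not corrected for gene length. It was 1.92, 2.47 and 0.932 in YT-FF and 4.18, 4.17 and 6.18 in YT-AKO. The remaining members did not pass. *Loxl2*, which also acts on type IV collagen, had 26.6, 36.7 and 30.9 CPM in YT-FF and 47.6, 28.8 and 38.5 CPM in YT-AKO (log2 fold change 0.29, SE 0.221, adjusted p = 0.353). *Loxl3* was at 10.2 ± 1.70 and 10.9 ± 3.11 CPM (log2 fold change 0.09, SE 0.262, adjusted p = 0.826) and *Loxl4* at 2.17 ± 0.546 and 1.45 ± 0.242 CPM (log2 fold change -0.58, SE 0.364, adjusted p = 0.260). With library totals alone *Loxl2* and *Loxl3* were at -0.02 and -0.22.

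The changed matrix genes differed in length with the direction of their change. The 4 higher genes had summed exons of 0.888 to 4.72 kb and the 4 lower genes of 5.30 to 10.8 kb. The same slope ran through all tested genes, whose median log2 fold change was 0.56 in the shortest of 10 equal bins of length and -0.52 in the longest. Exon length and log2 fold change had, across the 43 matrix genes, a Spearman's rho of -0.52, and across all tested genes -0.38, where genes share libraries and are not independent replicates. After each library was corrected for gene length, *Timp1*, *Mmp3* and *Adamtsl5* were called higher and 0 matrix genes lower, beside 10.1% and 4.54% of all genes, with 6 matrix genes lower at an unadjusted p under 0.05. With this correction and without YT-AKO 2, 11 were higher and 2, *Adamts5* and *Adamts6*, lower, beside 15% and 8.47% of all genes.

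**Figure D5:**
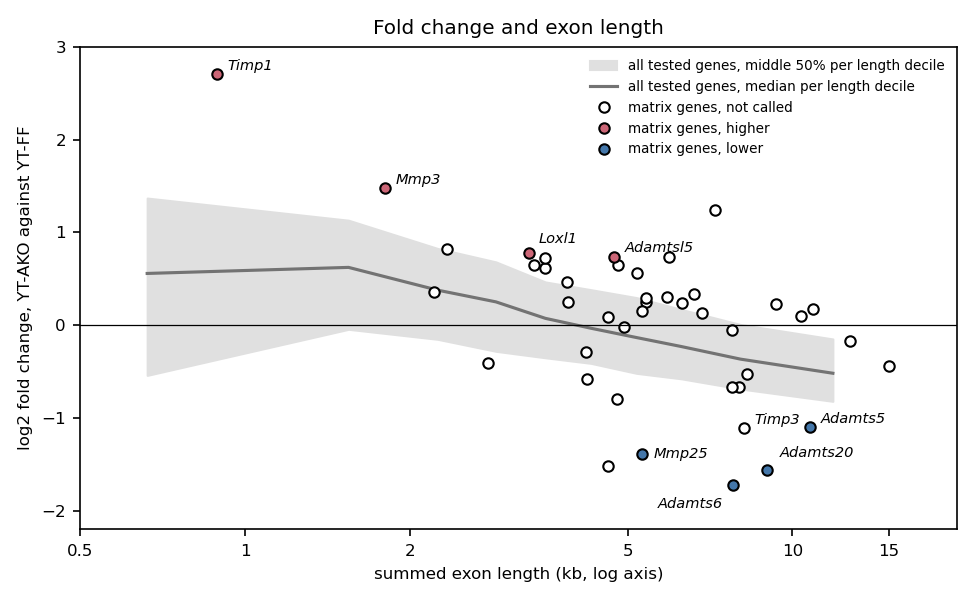
Log2 fold change (labelled YT-AKO over YT-FF) against summed exon length (kb, log axis), with points for the 43 tested matrix genes and, in grey, the median and the middle 50% of all tested genes in each of 10 bins of length. The grey median goes from 0.56 in the shortest bin, with 0.62 in the next, to -0.52 in the longest, and the 4 higher matrix genes lie above it and the 4 lower ones below it.

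Genes that work with these enzymes were compared in 10 lists of 97 genes, of which 84 were tested. In all, 17 were higher and 2 lower, beside 12.6% and 9.01% of all tested genes, with a median log2 fold change of 0.26. Without YT-AKO 2 the counts were 32 and 3, beside 16.9% of all genes higher and 14% lower. After the length correction they were 26 and 0, beside 10.1% and 4.54%, and with library totals alone 6 and 4, beside 6.77% and 16.8%. Without YT-FF 1 or YT-FF 2, where edgeR called 0 and 2 of all genes, both counts were 0, and without YT-FF 3 they were 5 and 0, beside 4.03% and 3.02%. Proteins that prepare procollagen for fibre formation were among the higher genes. Of 4 procollagen C-proteinase genes and their enhancers, *Pcolce* and *Pcolce2*, the enhancers, were higher (log2 fold change 1.21 and 0.55, adjusted p = 0.0171 and 0.0456). Of 10 collagen hydroxylase and chaperone genes 4 were higher and 0 lower, led by *P4ha1*, a prolyl hydroxylase (1.22, adjusted p = 0.0190), and *Serpinh1*, the collagen chaperone (0.90, adjusted p = 0.0240). The 9 tested fibrillar collagens had a median log2 fold change of 0.37, and edgeR called 0 of them, DESeq2 1 and limma-voom 1, with 1 at an unadjusted p under 0.05.

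Of 15 elastic fibre and microfibril genes 3 were higher and 1 lower. The share to set beside this and each following list is 12.6% of all tested genes higher and 9.01% lower. *Efemp2*, fibulin-4, which brings lysyl oxidase to elastin, and *Mfap2* were the leading higher genes (log2 fold change 0.95 and 0.75), and *Ltbp2*, a latent TGF-beta binding protein of microfibrils, was the lower one (-0.80). Of 13 genes of the cathepsin list 5 were higher and 0 lower, or 38.5% called, beside 21.6% of all tested genes called in either direction. The largest were *Ctsd* and *Ctsz* (1.35 and 1.25), lysosomal proteases, and the list also held *Cst3*, a cathepsin inhibitor, at 1.22. Of 7 proteoglycan genes 1 was higher, *Lum* (0.72), which binds collagen fibrils, and DESeq2 called 1 higher and 1 lower. Of 8 ADAM genes *Adam15* was higher (0.88) and *Adam10* lower (-0.61). Of 9 genes for activation and clearance 1 was higher, *Bsg*, an inducer of MMPs (0.87). DESeq2 and limma-voom each called 1 of these genes higher and 1 lower. With edgeR *Reck* was at -0.73 and was not called (adjusted p = 0.0547). The 6 genes of plasminogen activation had no call with edgeR, DESeq2 or limma-voom and 0 at an unadjusted p under 0.05. Of 3 transglutaminases edgeR called 0, limma-voom 0 and DESeq2 1, with 1 at an unadjusted p under 0.05.

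The summed markers of 3 other cell types did not overlap between the groups. The macrophage sums given above, which rested on *C1qa* and *C1qb*, and the 6 mast cell markers (42.5 to 53.2 CPM in YT-FF and 81.4 to 111 CPM in YT-AKO, 4 of 5 tested called higher) were above all controls, and the B cell sums were below them. The 8 fibroblast and progenitor markers overlapped, with 2017 to 2554 CPM in YT-FF and 2517 to 3446 CPM in YT-AKO, and 2 were called higher and 1 lower. The 6 endothelial markers ran from 593 to 640 CPM and from 523 to 838 CPM, and the 6 smooth muscle and pericyte markers from 338 to 383 CPM and from 325 to 361 CPM. The T cell markers ran from 292 to 450 and from 250 to 609 CPM, and the Schwann cell markers from 252 to 312 and from 203 to 297 CPM. Skeletal muscle markers reached 2945 CPM in YT-AKO 1 and 112 to 438 CPM in the other 5 libraries. The 6 epithelial markers summed to at most 5.10 CPM, with *Krt5* at 0, and of the 4 brown depot markers, which ran from 73.3 to 107 CPM in YT-FF and 79.0 to 86.5 CPM in YT-AKO, *Zic1* was at 0. The part of these cells in the levels of the matrix genes was not tested.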

How the data were processed

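Total RNA of scWAT from 6 mice was sequenced by the authors as paired ends on a NovaSeq and mapped to mm10 with HISAT2. The authors deposited raw fragment counts by gene, made with featureCounts 2.0.1 on GENCODE vM25 exons, without regard to strand and leaving out fragments with more than 1 mapping place or gene. The total counts per library are given in the report. Symbols were matched by gene identifier for 55141 of 55401 genes.

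Counts were analysed in R 4.3.3 with edgeR 4.0.16 (TMM, filterByExpr with a minimum count of 10 and a minimum total of 15, quasi-likelihood test, Benjamini-Hochberg adjustment over 16807 genes), and every adjusted p is from this test unless another tool is named. TPM used summed exon lengths. The sums for cell types are in TMM-scaled CPM. Limits for counts of 0 used 3 counts and cover only counting error, as no molecular identifiers were used. The labels do not say more on replicates than that they are separate samples, and the methods count 3 mice per group.

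Alternatives were DESeq2 1.42.0, limma-voom (limma 3.58.1), RLE and upper-quartile factors, library totals alone, robust estimation, no filter, a filter of 10 counts per library, a block for the replicate number, a spline correction of each library for gene length (6 degrees of freedom), block and correction together, and each library left out. The length correction without YT-AKO 2 was added after the data were seen. The matrix genes and lists were chosen with earlier results of these data known. The named genes were the TIMPs and lysyl oxidases, the genes with an adjusted p under 0.05, the 5 with the highest TPM in YT-FF, and at most 2 called genes per direction of each list of partner genes. Others were named after their values were seen. Both count tests were run on simulated data (16807 genes). For YT-AKO against YT-FF, edgeR recovered 15 of 100 genes changed 2-fold and 86 of 100 changed 4-fold, with 7 false calls. DESeq2 recovered 42 and 94, with 41 false calls. The simulation changed far fewer genes than the 3636 that edgeR called in the data, and it held no slope with gene length. Its recovery rates are thus no measure of sensitivity in these data. Exon overlaps were computed with GenomicRanges 1.54.1.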

Additional observations from a re-analysis of the deposited data

How the results depend on the processing

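With each library left out in turn, 0 to 9 genes were higher and 0 to 6 lower at an adjusted p under 0.05, and 0 to 3 and 0 to 1 at the stricter threshold. DESeq2 called 2 higher and 4 lower at the stricter threshold, and edgeR without the filter on low counts 2 and 2. With library totals alone an adjusted p under 0.05 called 2 as higher and 6 as lower, beside 6.77% and 16.8% of all genes, the median log2 fold change of the tested matrix genes was -0.12, and *Loxl3* (-0.22), *Timp4* (-0.053), *Timp2* (-0.083) and *Loxl2* (-0.018) changed sign. The gene length correction left 0 lower and a median of 0.39, and with YT-AKO 2 also left out, a setting chosen after seeing the data, 11 were higher, 2 lower and 2 higher at the stricter threshold. With each library left out, *Timp4* ran from -0.088 to 0.54 and *Loxl3* from -0.15 to 0.26. Libraries with the same replicate number did not deviate together (correlations 0.126, -0.118 and -0.0893), so the numbers were not treated as pairs, and with the replicate number as a block 0 matrix genes were higher and 0 lower, with the length correction as well as without it. With the block alone 0.196% of all genes were called, and 14 matrix genes had an unadjusted p under 0.05. The cause of these shifts was not tested.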
